A study of Mus musculus with 6 samples.

Results

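The growth hormone axis of the liver was examined through 10 genes, chosen by symbol as the receptor, the STAT5 factors, the feedback genes and the circulating IGF1 complex: *Ghr*, *Stat5a*, *Stat5b*, *Socs2*, *Cish*, *Igf1*, *Igfals*, *Igfbp2*, *Igfbp3* and *Bcl6*. All 10 were found among the 24421 gene symbols of the deposited table. The series holds hepatic mRNA from 6 C57BL/6 mice, 3 WT littermates and 3 mice heterozygous for PAI-1 (Pai-1+/-), aged 21 weeks by the labels and fed standard chow without restriction. The published description differs from the labels in giving a slightly younger age, the J substrain and male sex for both genotypes, whereas the labels state the sex only for the WT mice. The heterozygotes carry the null allele in every cell rather than in hepatocytes alone. The study asked how partial loss of PAI-1 alters hepatic gene expression. That comparison was not made here, because the columns of counts are headed by numbers that match no label and were therefore not used for any value. The values below are the authors' mean over all libraries of both genotypes. They are given without an SD, test or value per mouse, and differences between genes were not weighed against the spread between mice.

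Growth hormone from the pituitary binds its receptor on hepatocytes and activates the kinase JAK2, which phosphorylates STAT5. Phosphorylated STAT5 enters the nucleus and binds paired half-sites in DNA, and its targets include the main circulating growth factor, IGF1, and feedback inhibitors of the receptor. In rodents the hormone is released in pulses in males and more continuously in females, and this difference sets much of the sex bias of liver gene expression.

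The level of a gene is its mean normalized count, the count divided by the size factor of the library and averaged over the libraries. Levels were compared between genes as the mean normalized count per kilobase, by the length of the longest annotated transcript unless another is named. Exceptions are the ranks, the shares of summed counts and values named as counts, which were not divided by length. All 10 genes had a mean normalized count above 10, as did 12971 genes of the table. The median of the 10 genes was 364.6 per kilobase, against 128.9 per kilobase over the genes with a mean above 10 and a known length. Of the 10 genes, 8 lay above that median. By mean normalized count, not divided by length, 9 of the 10 lay above the median of the genes above 10. *Igfbp2*, *Igf1* and *Ghr* together held 87.2% of the summed mean normalized counts of the axis. The highest gene, *Igfbp2*, exceeded the lowest, *Stat5a*, by 166-fold per kilobase.

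**Figure D1:**
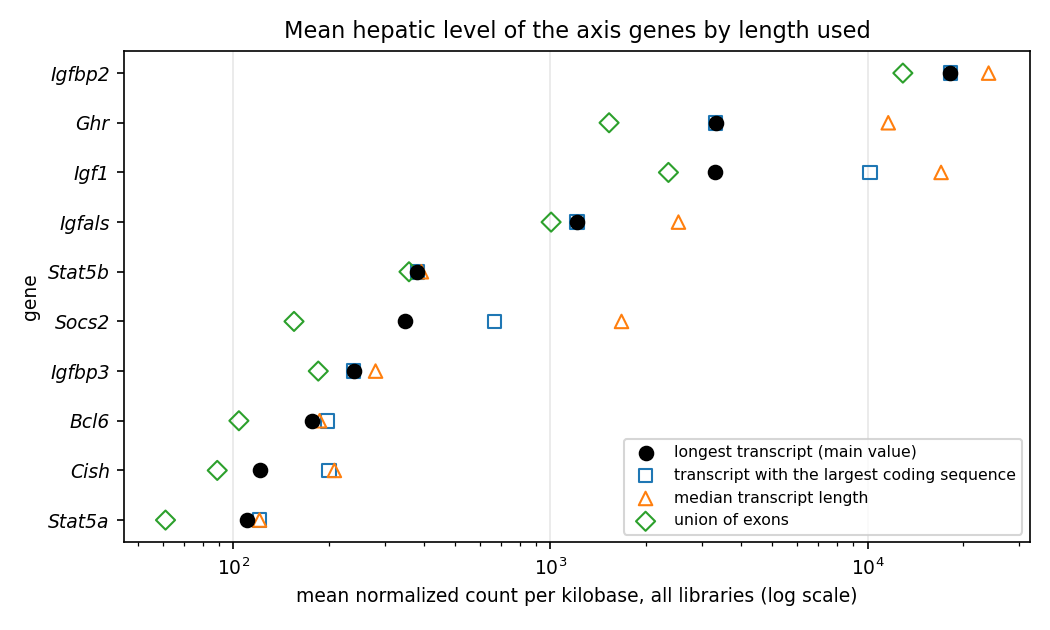
Mean normalized count per kilobase on a log axis for each of the 10 genes, as the authors' mean over all libraries. Filled circles use the longest transcript and open symbols use 3 other lengths. *Igfbp2* is highest and *Stat5a* lowest with every length, whereas *Igf1* runs from 2355 to 17057 per kilobase.

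The receptor was among the abundant messages. *Ghr* had a mean normalized count of 13856, rank 279 among the genes above 10, and a level of 3319 per kilobase, at percentile 95.95 of those genes. *Ghr* lies on the reverse strand at chr15:3317760-3583492 (GRCm38) and has 10 annotated transcripts, of which 5 are coding. In mice the gene also yields a short message for the soluble growth hormone binding protein, and the table gives both as 1 row. The prolactin receptor *Prlr*, its closest relative among the cytokine receptors, stood at 431.1 per kilobase, so that *Ghr* was 7.70-fold higher per kilobase, or 3.39-fold when the median transcript length was used. *Jak2*, the kinase bound to the receptor, stood at 118.3 per kilobase, 28.0-fold below *Ghr*, a ratio that ran from 12.9-fold with the union of exons to 87.3-fold with the median transcript length.

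The transcription factors of the pathway were less abundant than the receptor. *Stat5b* had a mean normalized count of 1982 and 380.2 per kilobase, at percentile 74.4. *Stat5a* had a mean normalized count of 435.6 and 110.0 per kilobase, at percentile 46.2. *Stat5b*, the form that carries most of the growth hormone response in liver, was thus 3.46-fold higher per kilobase, and between 3.15-fold and 5.86-fold over the other lengths. *Stat3*, the related factor activated by interleukin 6, stood at 752.6 per kilobase, above both.

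*Stat5a* and *Stat5b* are paralogs that lie head to head on chromosome 11, on the forward strand at chr11:100859351-100885169 and the reverse strand at chr11:100780731-100850724 (GRCm38), with 8626 bases between them. Their coding sequences, of 2391 and 2358 bases, were identical at 90.9% of 2291 aligned bases. The likeness was uneven. A run of 324 bases, coding bases 571 to 894 in both genes, was the same base for base and spans exons 6 to 8 of each. Exon 7, of 152 bases, lies wholly within that run, and reads inside the run cannot be assigned to either gene by their sequence. The exon is shown for that reason. It is at chr11:100874339-100874490 in *Stat5a* and chr11:100798234-100798385 in *Stat5b*.
Stat5a and Stat5b exon 7: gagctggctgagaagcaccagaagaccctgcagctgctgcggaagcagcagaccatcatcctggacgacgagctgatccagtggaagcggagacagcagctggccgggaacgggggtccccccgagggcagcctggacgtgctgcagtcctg

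Reads were 75 bases long. Of the windows of that length, 387 of 3531 in the *Stat5a* coding transcript (10.96%) and 387 of 5139 in that of *Stat5b* (7.53%) occurred in the other gene. They formed 6 stretches of 82 to 324 bases, all inside the coding sequence. How such reads were counted is not given in the sources used here, so the individual levels of both genes are uncertain to that extent. *Stat5a* also shares 72 exonic bases with *Stat3* on the other strand. No such window was shared with another annotated gene by *Ghr*, *Igf1*, *Igfals*, *Igfbp2*, *Igfbp3* or *Bcl6*, in either transcript examined.

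The feedback genes code for SH2 proteins that STAT5 induces and that bind the activated receptor to end its signal. *Socs2*, whose loss causes gigantism in mice, had a mean normalized count of 1479.9 and 348.9 per kilobase, at percentile 72.8. *Cish* had a mean normalized count of 570.8 and 121.5 per kilobase, at percentile 48.6. Its longest transcript codes for no protein, and by the transcript with the largest coding sequence *Cish* stood at 200.3 per kilobase. *Socs2* was 2.87-fold above *Cish* per kilobase, and between 1.75-fold and 8.05-fold over the other lengths. Of the other members of the family, *Socs3*, which interleukin 6 induces through STAT3, stood at 215.9 per kilobase, between these genes. With the union of exons *Socs3* exceeded *Socs2*, at 190.6 against 155.3 per kilobase. *Socs1* had a mean normalized count of 7.86, under the minimum of 10. *Socs2* lies on the reverse strand at chr10:95385362-95417180 and *Cish* on the forward strand at chr9:107296026-107302784. Of the read-length windows of the coding transcripts, 13.97% in *Socs2* also occurred in the processed pseudogene *Gm9847*. In *Cish*, 12.1% occurred in the antisense gene *Gm17041* and 1.12% in the pseudogene *Gm17040*. In the longest transcripts the shared windows were 5.47% for *Socs2* and 11.4% for *Cish*, with the same loci. Both levels can therefore include or lose reads of those loci.

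*Bcl6* encodes a zinc finger repressor whose recognition sequence overlaps that of STAT5 and which in mouse liver is repressed by growth hormone. Its mean normalized count was 697.2, with 177.3 per kilobase and percentile 57.9. Among the regulators of the pathway it stood between *Stat5b* and *Stat5a*, and its order relative to *Cish* changed with the length used, 1.46-fold above it with the longest transcript and 0.988-fold with the coding transcript. *Bcl6* lies on the reverse strand at chr16:23965052-23988852.

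*Igf1* and its carriers are the secreted output of the axis. *Igf1* had a mean normalized count of 23326, rank 174, and 3308 per kilobase, at percentile 95.94. Its level per kilobase was 0.997-fold that of *Ghr* when the longest transcript, of 7052 bases, was used. With the transcript of the largest coding sequence, of 2292 bases, *Igf1* stood at 10177 per kilobase and was 3.07-fold above *Ghr*. The gene lies on the forward strand at chr10:87858265-87937042 and has 8 transcripts, all coding, and the longest of them codes for 459 bases against 495 in the shorter one used here. *Igf2*, the fetal growth factor, had a mean normalized count of 15.6 and 3.30 per kilobase, 1001-fold below *Igf1*, and between 864.0-fold and 3080-fold over the other lengths. The receptor for IGF1, *Igf1r*, was also scarce, at 8.40 per kilobase, whereas the insulin receptor *Insr* stood at 512.9 per kilobase.

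In blood most IGF1 travels in a complex with IGFBP3 and the acid labile subunit, the product of *Igfals*, which prolongs its life. *Igfals* had a mean normalized count of 3181 and 1212 per kilobase, at percentile 90.02. *Igfbp3* had a mean normalized count of 579.6 and 239.4 per kilobase, at percentile 64.5. The parts of the complex were therefore unequal in message, with *Igf1* 13.8-fold and *Igfals* 5.06-fold above *Igfbp3* per kilobase. Over the other lengths the first ratio ran from 12.7 to 60.8 and the second from 5.06 to 9.02. In rodent liver *Igfbp3* is made mainly by sinusoidal cells rather than by hepatocytes. Which cells gave the *Igfbp3* message here was not tested. Markers of sinusoidal cells ran from 70.7 (*Lyve1*) to 634.7 (*Clec4g*) per kilobase for 6 endothelial genes and from 79.6 (*Timd4*) to 1166 (*Cd5l*) for 6 Kupffer cell genes. In bulk liver, fewer cells of a type and less RNA per cell cannot be told apart. *Igfals* lies on the forward strand at chr17:24865997-24882010 and *Igfbp3* on the reverse strand at chr11:7206086-7213923.

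*Igfbp2*, a binding protein that forms no such complex and that fasting and low growth hormone are known to raise, was the most abundant gene of the axis. Its mean normalized count was 23873, rank 171, with 18265 per kilobase and percentile 99.2. It lies on the forward strand at chr1:72824503-72852474 and its longest transcript has 1307 bases, against 7052 for *Igf1*. *Igf1* was 0.181-fold of *Igfbp2* per kilobase by those transcripts, 0.557-fold by the coding transcripts and 0.708-fold by the median lengths. *Igfbp2* was 76.3-fold above *Igfbp3* per kilobase, and between 69.8-fold and 85.8-fold over the other lengths. Of the other binding proteins, *Igfbp4* stood at 14581 and *Igfbp1* at 10598 per kilobase. *Igfbp4* was below *Igfbp2* by the longest transcript (0.798-fold) and above it by the median transcript length (3.04-fold). Of the other genes of that system, 4 were at or below a mean normalized count of 10, and *Pappa2*, which codes for a protease of binding proteins, was at 0.

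**Figure D2:**
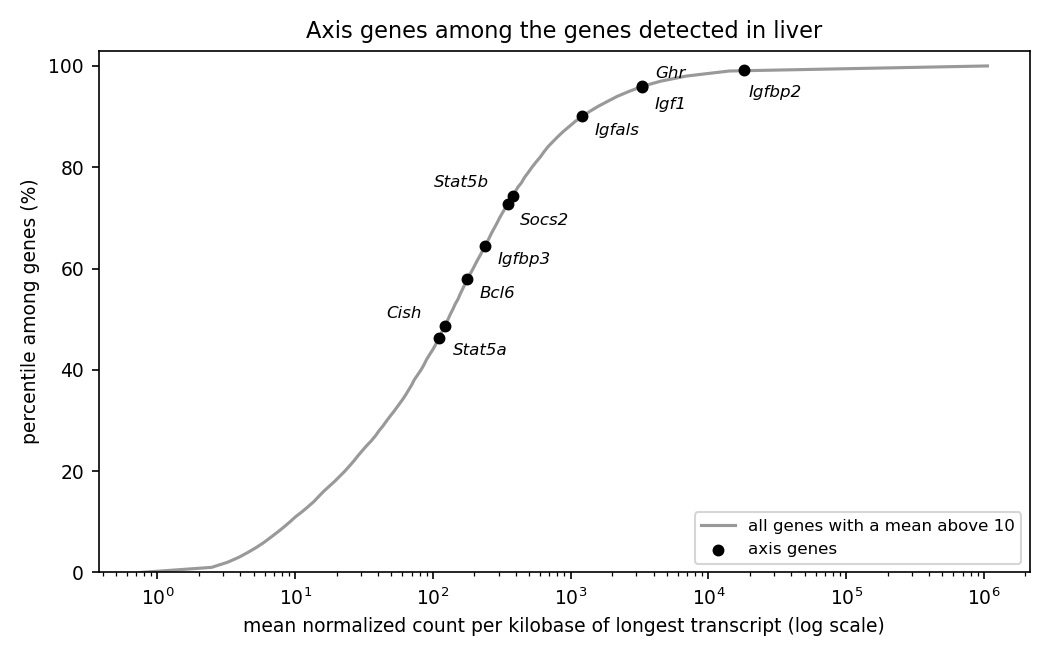
Percentile against mean normalized count per kilobase on a log axis, for all genes with a mean above 10 and a known length (grey line) and the 10 axis genes (points). *Igfbp2*, *Ghr*, *Igf1* and *Igfals* lie at or above percentile 90.02, while *Cish* and *Stat5a* lie below the middle of the curve. Lengths are those of the longest transcript, which codes for no protein in *Cish*, *Stat5a* and *Bcl6*. By mean normalized count alone *Cish* was at percentile 56.6.

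The windows around the annotated starts were searched for TTCNNNGAA, the consensus of the STAT5 dimer, which reads the same on both strands. RefSeq windows of 300 bases, 250 before the start and 50 from it (GRCm38.p6), matched 9 of the 10 genes with 16 starts, and *Socs2* had none. The motif was present in 5 of the 16 windows (31.3%) and in 3 of the 9 genes, namely *Cish*, *Igfals* and *Bcl6*. Over all 32851 windows of that length it was present in 8.30%, and over all 27025 genes with a window in 9.55%. The axis genes had more windows per gene than all genes, so the shares of genes are not on equal terms. At least 2 copies were present in the *Cish* window and in 1 *Bcl6* window, and in 0.457% of all windows. A match to these letters is not a measurement of binding, and the 10 genes were chosen as members of this pathway. Sequence outside the windows was not searched, so the absence of a match applies to the windows only.

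The windows with the most matches, and the *Igfals* match nearest to a start, are shown in the 5′ to 3′ direction of the gene with the motif in capitals. The *Cish* window is at chr9:107296409-107296708, forward strand, and with the start base as position 0 its matches begin at positions 0 and 11. The *Igfals* window is at chr17:24877981-24878280, forward strand, with a match at position -58. The *Bcl6* window, of its downstream start, is at chr16:23981234-23981533, reverse strand, with matches at positions -168, -122 and -88.
Cish: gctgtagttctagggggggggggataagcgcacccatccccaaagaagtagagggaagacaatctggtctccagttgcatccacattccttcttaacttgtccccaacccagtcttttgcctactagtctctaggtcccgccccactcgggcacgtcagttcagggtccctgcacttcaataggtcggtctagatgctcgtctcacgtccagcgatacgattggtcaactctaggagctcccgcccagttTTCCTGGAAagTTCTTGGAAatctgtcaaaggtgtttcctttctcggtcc
Igfals: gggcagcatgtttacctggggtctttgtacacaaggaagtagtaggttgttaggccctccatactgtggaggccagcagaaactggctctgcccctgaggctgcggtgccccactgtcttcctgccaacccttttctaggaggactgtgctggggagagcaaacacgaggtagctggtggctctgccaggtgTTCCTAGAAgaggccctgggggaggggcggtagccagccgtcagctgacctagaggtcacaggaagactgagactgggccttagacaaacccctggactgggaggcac
Bcl6: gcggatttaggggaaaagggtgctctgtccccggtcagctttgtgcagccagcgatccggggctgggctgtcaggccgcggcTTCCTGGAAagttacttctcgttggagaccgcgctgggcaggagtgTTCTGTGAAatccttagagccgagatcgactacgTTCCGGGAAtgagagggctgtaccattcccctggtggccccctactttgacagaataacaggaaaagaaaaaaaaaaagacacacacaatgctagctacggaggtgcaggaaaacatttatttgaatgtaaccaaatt

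**Figure D3:**
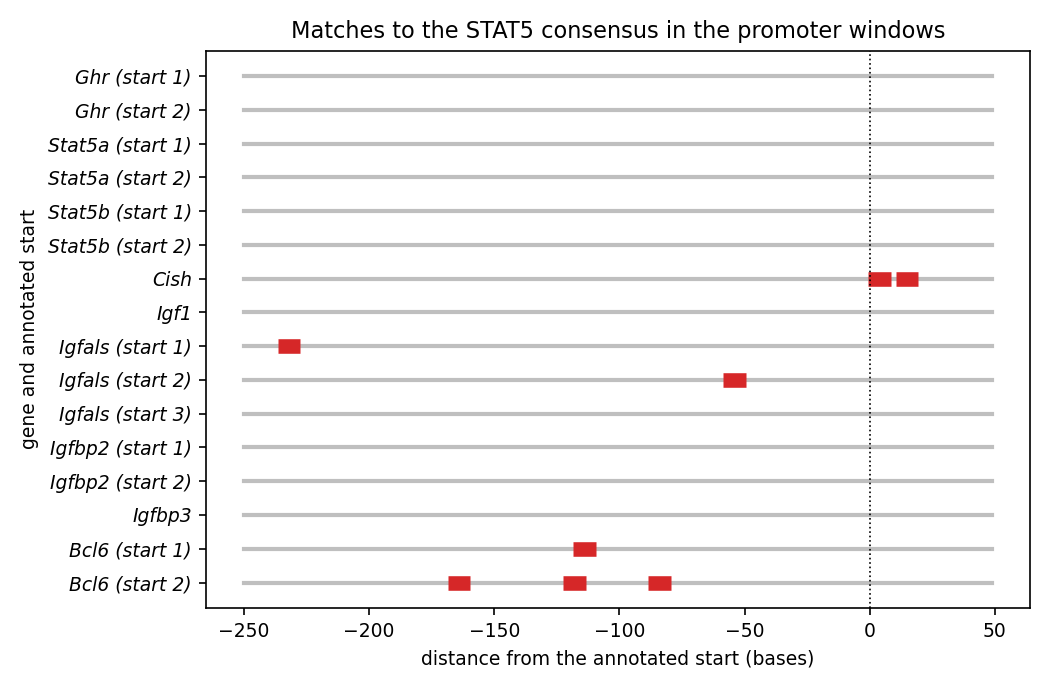
Positions of TTCNNNGAA (red) in 16 RefSeq promoter windows of 9 axis genes, in bases from the annotated start (dotted line). Matches are in the window of *Cish*, in 2 of 3 windows of *Igfals* and in both windows of *Bcl6*, 8 in all.

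Genes next to the receptor and downstream of STAT5 place these levels in context. Of 14 further signalling genes, which code for the prolactin receptor, kinases, phosphatases, adaptors and other STAT and SOCS proteins, 13 had a mean normalized count above 10, and their median was 213.8 per kilobase. *Stat3* was highest and *Socs1* lowest of that list. Of 13 other genes of the IGF system, 9 were above 10, with a median of 19.4 per kilobase. All 10 genes known to be higher in male than in female mouse liver under growth hormone and STAT5B were above 10, with a median of 4613 per kilobase, from *Hsd3b5* at 343.0 to *Mup3* at 167581. Of 10 genes known to be higher in females, 6 were above 10, with a median of 16.6 per kilobase, from *Sult2a1* at 0.169 to *Cyp17a1* at 466.5. *Acot3* (404.1 per kilobase) and *Cux2* (48.8), which are also in the female-biased list, were above 10. The *Mup* genes and several *Cyp2* and *Serpina1* genes have near-identical copies, and their single values are uncertain. The 7 liver transcription factors, led by *Hnf4a* at 5587 per kilobase, had a median of 375.5.

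**Figure D4:**
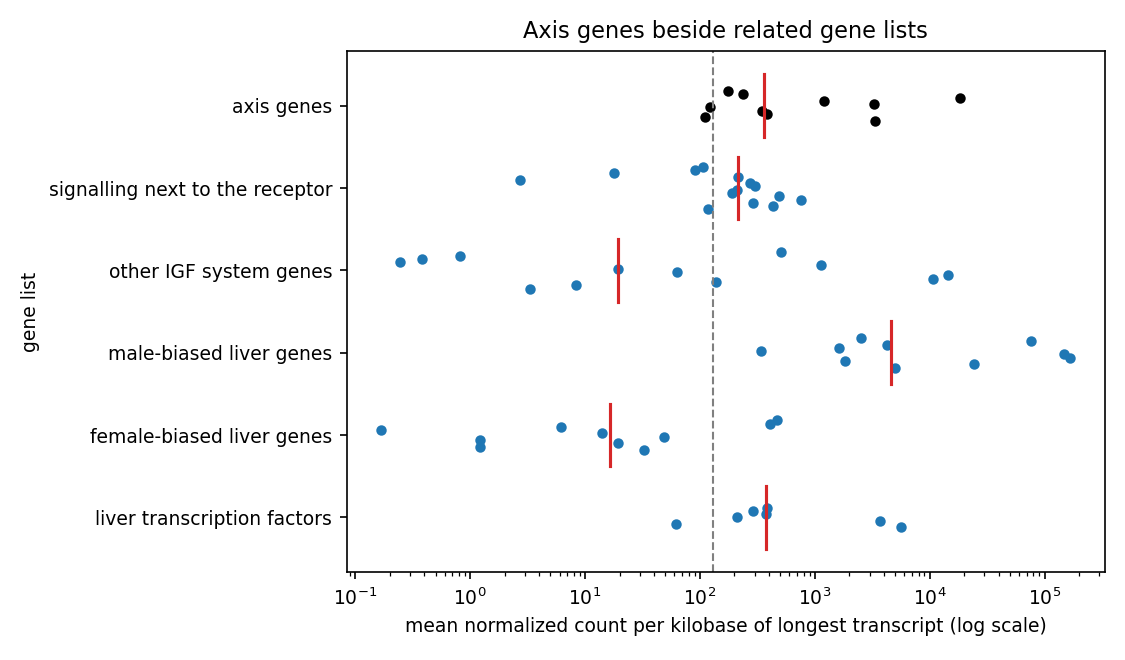
Mean normalized count per kilobase on a log axis for the 10 axis genes (black) and 5 related lists (blue), 1 point per gene, with the median of each list (red line) and that of all genes with a mean above 10 (dashed line, 128.9). *Pappa2*, at 0, is not drawn, and the male-biased genes run from 343.0 to 167581.

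All 8 hepatocyte markers lay at or above percentile 99.4 per kilobase and held 10.9% of the summed means, with *Alb* the highest gene of the table. Of 8 markers of other tissues, 6 were at or below a mean normalized count of 10, with *Prl* and *Sftpc* at 0 and *Gh* at 0.160, while the pancreatic genes *Cela1* and *Prss2* had means of 242.2 and 15.4. Markers of stellate cells ran from 27.7 to 886.5 per kilobase over 6 genes, and those of cholangiocytes from 6.31 to 776.3 over 5. Their part in the levels of the axis genes was not tested. The mean normalized counts summed to 30046000.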

How the data were processed

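Livers of 3 WT and 3 Pai-1+/- mice gave poly(A) libraries, sequenced as single-end reads of 75 bases. The authors used STAR for alignment to mm10 and DESeq2, in a BaseSpace application, for the genotypes, and the processing notes also list HOMER. Versions, annotation and strand setting are not given in the sources used here. The signal used is a deposited column, the authors' average of size-factor-normalized counts across the whole series. The authors' deposited table also holds fold changes, standard errors, Wald statistics and p-values of their comparison, which were not used. A second deposited table holds whole-number counts in 6 columns. They were left out of every step, since no label holds the numbers that head them and they could not be tied to samples of the series. The planned edgeR test of the genotypes could therefore not be run. Depth and spread per library were not computed from these columns.

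GENCODE M21 (GRCm38, also called mm10) gave lengths, exons and transcript sequences. Of the 12971 genes with a mean above 10, 96.4% matched 1 gene by symbol. Percentiles per kilobase are over 12499 genes, and those of counts over 12971. Windows of 75 bases of the longest transcript, and of the transcript with the largest coding sequence, were searched on both strands of all other genes' transcripts. Promoters came from RefSeq. The calculations were tested on simulated data, and Python 3.11.15, NumPy 2.4.6, pandas 2.3.3 and Matplotlib 3.10.9 were used.

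The members and the lists were chosen with earlier results of these data known. The rule named all members and up to 4 genes of each list, with its highest and lowest. *Jak2*, *Insr* and *Igfbp1* went beyond that number. These, the marker genes named and the *Gm* loci were picked for mention after their values were seen. The length of the coding transcript was added after the data were seen, because the longest transcripts of 3 members (*Stat5a*, *Cish* and *Bcl6*) code for no protein. The targeted gene is not reported here.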

Additional observations from a re-analysis of the deposited data

How the results depend on the processing

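Values per kilobase depend on the length used, and a move of at least 1.5-fold, or of 10 percentile points, is given here. With the median transcript length the level per kilobase was 11624 for *Ghr*, 1675 for *Socs2*, 208.2 for *Cish*, 17057 for *Igf1* and 2533 for *Igfals*. With the union of exons it was 1530.5 for *Ghr*, 61.1 for *Stat5a*, 155.3 for *Socs2* and 104.1 for *Bcl6*. With the transcript of the largest coding sequence, chosen after seeing the data, it was 666.0 for *Socs2*, 200.3 for *Cish* and 10177 for *Igf1*. These moves follow from the lengths alone. *Igfbp2*, *Igfals* and *Stat5a* held places 1, 4 and 10 with every length. *Igf1* took place 2 and *Ghr* place 3 with each of the other lengths. *Socs2* took place 5 with the median and the coding transcript and 7 with the union of exons, *Stat5b* place 6 with the median and the coding transcript, and *Igfbp3* place 6 with the union. *Cish* took place 8 and *Bcl6* place 9 with the median and the coding transcript.

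Among the genes above 10, the percentile of the mean normalized count was 49.8 for *Stat5a*, 56.6 for *Cish*, 57.0 for *Igfbp3* and 61.5 for *Bcl6*. Among all 17678 genes with a mean above 0, these count percentiles were 63.1, 68.2, 68.5 and 71.8, since more genes of low level were counted. The percentiles given with each gene above are per kilobase. Among the genes above 10, no percentile per kilobase differed by 10 points from that of the mean normalized count. Percentiles per kilobase among all genes with a mean above 0 were not computed. The motif with 4 bases instead of 3 between TTC and GAA was found in the promoter windows of 0 of the 9 genes, against 8.01% of all genes and 6.95% of all windows. No paired analysis was possible because the columns of counts carry no replicate number of the labels. The DESeq2 size factors, the count filter and the fits without 1 sample were planned for the test of the genotypes and were not run, since the columns of counts were not used.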
